A study of Mus musculus with 3 samples.

Results

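The genes described here are 10 members of the elastic fibre and EMILIN families, Emilin1, Emilin2, Mmrn1, Mmrn2, Eln, Fbln1, Fbln2, Fbln5, Fbn1 and Mfap2, of the 31053 genes counted in every library. They were chosen by name from the gene symbols, and the set was picked because Emilin1 was higher in capillary endothelium of EC-iCOUPOE mice. The capillary levels of Emilin1 in these same libraries therefore chose it and are given as a description. Endothelial cells were sorted from Peyer's patches, the lymphoid follicles of the small intestine, and single-cell RNA was counted as unique molecular identifiers (UMIs), 1 per captured transcript. A single library came from control mice, labelled WT and of strain C57BL/6, and 2 libraries came from EC-iCOUPOE mice, labelled with the strain CDH5(PAC)CreERT2;COUP-TFIIOE/OE, in which tamoxifen switches on COUP-TFII, the transcription factor encoded by Nr2f2, in cells that express the endothelial gene Cdh5. Mice of both groups were 6 to 10 weeks old and both sexes were processed together. Cells of both groups are stated to have been taken 14 to 19 days after tamoxifen. The Cdh5 promoter is active in lymphatic as well as blood endothelium, and the sources used here do not say how many animals each library pooled or whether the control mice carried the overexpression allele. The paper describes both Cre-negative controls given tamoxifen and WT mice, while the label of the control library names WT alone. Whether the mice of that library were given tamoxifen is therefore not certain.

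Elastic fibres are built from a core of elastin (Eln) laid on microfibrils of fibrillin-1 (Fbn1) and MAGP-1 (Mfap2), with fibulins (Fbln1, Fbln2, Fbln5) helping elastin to settle on that scaffold. EMILIN-1 (Emilin1) is a glycoprotein found where elastin meets microfibrils and, in lymphatic vessels, at the anchoring filaments; its relatives are EMILIN-2 (Emilin2) and the multimerins, of which Mmrn1 is a known lymphatic endothelial gene and Mmrn2 a pan-endothelial one. In vessel walls elastin is best known from arteries, where smooth muscle and endothelium both contribute to it.

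The control library held 17341398 UMIs in 6080 barcodes, EC-iCOUPOE replicate 1 held 17417260 in 4959 and replicate 2 held 3548983 in 1441. Replicate 2 also held the fewest UMIs in most blood endothelial classes, and the control library the fewest in interferon-stimulated-like and mural cells. After filters 5341, 4656 and 1235 cells were used, and clusters were named by marker genes, written as "capillary-like" and so on. Fibroblast-like cells made up 2490 cells of the control library but 8 and 5 of the EC-iCOUPOE libraries, and lymphatic-like cells 4 of the control library but 909 and 127 of the others, so levels in these types rest on one side of the comparison only. The control library and replicate 2 shared 12 cell barcodes, and no value reported for capillary-like cells changed its call without them. Nr2f2, the overexpressed gene, stood at 7.59 CPM (counts per 1000000 UMIs summed over the class) in control capillary-like cells and at 1445 and 653 CPM in the EC-iCOUPOE libraries.

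Emilin1 (ENSMUSG00000029163) lies on the plus strand at chr5:30913402-30921277 of mm10 (GRCm38). In capillary-like cells it was read at 4.83 CPM in the control library (7 UMIs in 857 cells), at 200.2 CPM in EC-iCOUPOE replicate 1 (244 UMIs in 524 cells) and at 77.5 CPM in replicate 2 (33 UMIs in 223 cells). The control library was lowest and the counting intervals did not overlap: the exact Poisson 95% intervals were 1.94 to 9.96, 176 to 227 and 53.4 to 109 CPM. The log2 ratio to the control library was 5.37 (95% counting interval 4.31 to 6.70) for replicate 1 and 4.0 (2.80 to 5.43) for replicate 2, a mean of 4.69 ± 0.97 (SD, n = 2). With a single control library no test over samples can be made for any gene here, so each difference compares these libraries, and every interval covers counting error only. A gene was called different in a class when both EC-iCOUPOE libraries lay at least 2-fold to the same side of the control library, among genes with 50 or more UMIs in at least one library. Emilin1 passed that minimum in capillary-like cells through replicate 1 alone. By this rule 3.22% of the 4658 genes tested in capillary-like cells were called higher and 2.04% lower.

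A single Emilin1 UMI was also found in more capillary-like cells of the EC-iCOUPOE libraries. With every cell thinned to 1000 UMIs, 0.700% of control capillary-like cells held one (exact binomial 95% interval 0.257 to 1.52), against 17.2% (14.0 to 20.7) in replicate 1 and 6.73% (3.81 to 10.9) in replicate 2. Without thinning these shares were 0.817%, 30.5% and 11.7%, at median depths of 1433, 2079 and 1758 UMIs per cell. Free RNA can place UMIs in cells that do not make a transcript, and leukocyte-like cells were set as its measure: 0 of 18 held an Emilin1 UMI in the control library, which allows a share of up to 18.5%, and 13.3% of 30 in replicate 1 (3.76 to 30.7, median depth 4177 UMIs), while replicate 2 had 2 such cells. That interval includes the capillary-like share of replicate 1, which therefore does not stand above this measure. Without thinning 26.7% of these leukocyte-like cells held an Emilin1 UMI and 13.3% held one of Mmrn2, an endothelial transcript. Epithelial-like cells had an Emilin1 UMI after thinning in 14.0% of 157 cells of replicate 1 (8.99 to 20.4, median depth 4651). In replicate 2 the share was 8.82% of 34 cells (1.86 to 23.7, median depth 4883). Both intervals include the capillary-like share of the same library. Pericyte-like cells had an Emilin1 UMI in 1.89% of 53 cells of replicate 1 (0.0478 to 10.1, median depth 2501), below its capillary-like share. In replicate 2 the pericyte-like share was 4.88% of 41 cells (0.596 to 16.5, median depth 2810), which includes the 6.73% of its capillary-like cells. Whether pericyte-like and epithelial-like cells made Emilin1 or held RNA of other cells was not tested. The lymphatic transcript Mmrn1 had more UMIs than Emilin1 in replicates 1 and 2, 9364 against 2863 and 884 against 388. After thinning it was found in 0.573% and 0.448% of their capillary-like cells and in 0 of 30 leukocyte-like cells of replicate 1. How much of the Emilin1 share came from free RNA was not tested.

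**Figure D1:**
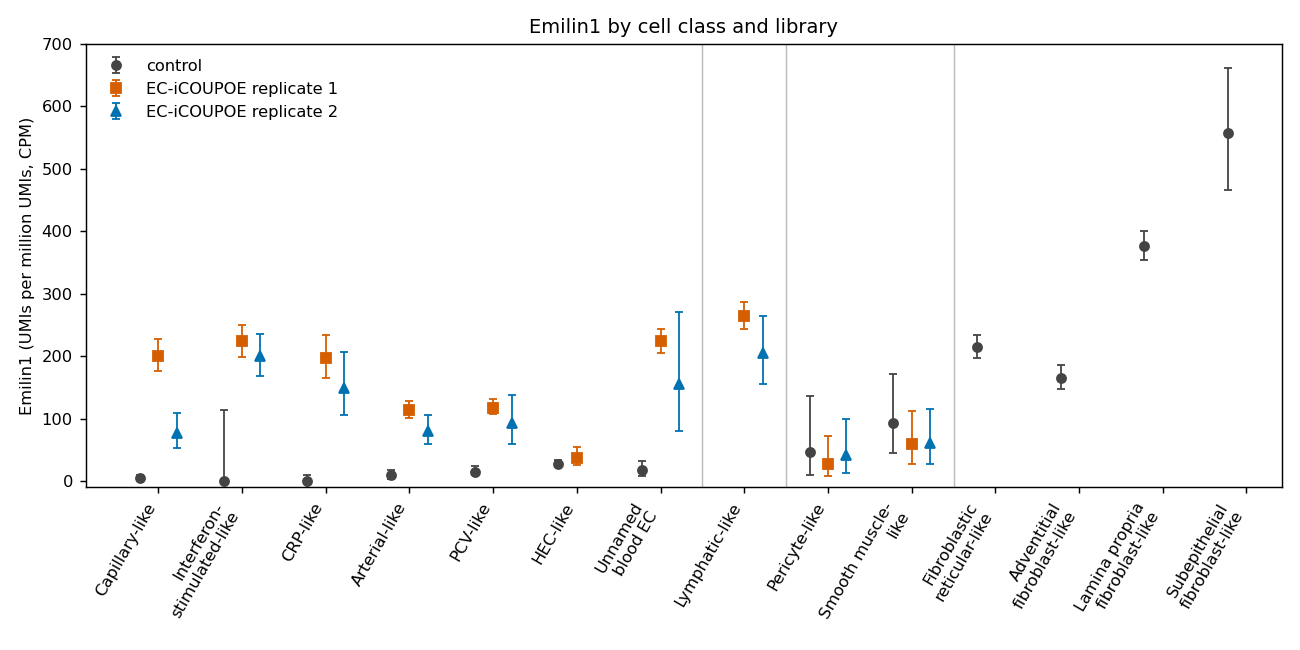
Emilin1 level in CPM (UMIs of the gene per 1000000 UMIs of the class, linear axis) by cell class, with a grey circle for the control library, an orange square for EC-iCOUPOE replicate 1 and a blue triangle for replicate 2. Bars are exact Poisson 95% counting intervals and only classes with at least 10 cells in a library are drawn. In blood endothelium the control library stays at or below 28.2 CPM, while both EC-iCOUPOE libraries lie at 77.5 CPM or above in every blood endothelial class with enough cells in all 3 libraries. The highest levels are those of the control fibroblast-like classes, up to 558 CPM.

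Capillary-like cells were not the same mixture in each library. The class was made up of 3 clusters: e2, led by Scgb3a1 and Prom1, with 436, 150 and 146 cells in the control library and replicates 1 and 2, e6 with 409, 39 and 22, and e8, led by Ramp3 and Cd300lg, with 12, 335 and 55. Within e2 Emilin1 stood at 4.85, 43.7 and 33.5 CPM (4, 13 and 9 UMIs), log2 ratios of 3.17 and 2.79. Within e6 it stood at 3.34, 206 and 161 CPM (2, 14 and 6 UMIs). Both clusters kept the control library lowest, although neither reached the 50 UMIs of the rule, and the ratio in e2 was smaller than in the whole class. In e8 the control library held 1 Emilin1 UMI in 12 cells (39.9 CPM), against 254 and 150.2 CPM. So most of the Emilin1 UMIs of replicate 1, 217 of 244, came from a cluster that the control library scarcely held. The log2 ratio of replicate 2 in e8, 1.91 (-0.75 to 7.29), includes no change. The capillary name of e8 is also weak, with a mean log2 marker ratio of 0.1 against 1.29 in e2 and 1.75 in e6. With finer clusters the class held 773, 228 and 172 cells and Emilin1 stood at 6.83, 80.8 and 48.1 CPM, and with doublets kept at 4.69, 64.7 and 57.4 CPM. Its level in replicate 1 thus fell from 200.2 CPM to 80.8 and 64.7 CPM with the cells named capillary-like, while the control library stayed lowest.

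Outside the capillary-like class Emilin1 was higher in both EC-iCOUPOE libraries in every other blood endothelial class that could be compared. In arterial-like cells it went from 9.38 CPM in the control library to 114 and 80.2 CPM, a mean log2 ratio of 3.35 ± 0.36 (SD, n = 2), where 4.22% of genes were called higher and 2.71% lower. In postcapillary venule (PCV)-like cells, the venules that follow capillaries, it went from 15.4 to 118 and 93.1 CPM, a mean of 2.76 ± 0.24, against 3.17% of genes higher and 1.70% lower. The control library was lowest and its counting interval lay apart from both others in each of these classes. Of the PCV-like clusters, e7 is weakly named, with a mean log2 marker ratio of 0.44 against 1.39 in e0. Arterial-like cells were not the same mixture either, since cluster e3, led by Enpp6 and Cyp1a1, held 4 control cells against 566 and 150. The arterial name of e3 is weak, with a mean log2 marker ratio of 0.45 against 2.9 in e10 and 1.28 in e11. Most arterial-like cells of both EC-iCOUPOE libraries, but few of the control library, thus carry a weak name. In the other arterial-like clusters Emilin1 stood at 10.3, 94.0 and 26.9 CPM in e10 (6, 26 and 2 UMIs), where the log2 ratio of replicate 2, 1.38 (-1.96 to 3.87), includes no change, and at 7.61, 135 and 117 CPM in e11 (2, 33 and 18 UMIs). An unnamed blood endothelial cluster, led by Colec12 and Ltc4s, held 17.7, 224 and 155 CPM, a mean log2 ratio of 3.40 ± 0.37, where 6.48% of genes were higher and 1.88% lower.

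In the other 2 comparable classes the control library held no Emilin1 UMI. Cells resembling capillary resident progenitors (CRP-like), an angiogenic capillary population, held 0 UMIs in 163 control cells, then 198 and 149.9 CPM, at least 22.6-fold and 17.2-fold higher when the control is set at 3 UMIs, and 4.61% of genes were called higher there and 2.05% lower. Interferon-stimulated-like cells held 0 UMIs in 19 control cells, then 224 and 199.9 CPM. By the same floor, which covers error in the control count alone, these were 2.41-fold and 2.15-fold higher. The exact intervals of their log2 ratios began at 0.96 and 0.79, under 2-fold. Here 7.37% of genes were called higher and 12.2% lower. In this small class 3 control UMIs equal 92.9 CPM, so the floor can call lower a gene with 0 control UMIs. The 12.2% may count such genes. Of the interferon-stimulated-like cells 14 of the control library lay in cluster e13, led by Rsad2 and Ifit3b, against 15 and 5. Cluster e1, led by Tgtp2 and Cxcl10, held 5 control cells against 493 and 278, so this comparison is between cells of different clusters. The interferon-stimulated name of e1 is weaker, with a mean log2 marker ratio of 0.78 against 3.88 in e13. With TMM (trimmed-mean) scaling this class had factors of -0.51 and -0.59 on the log2 scale, which raise its ratios by as much, and factors from -0.13 to 0.21 in the other 5 classes. Emilin1 was called higher in all 6 classes with either scaling.

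High endothelial-like cells, the venules through which lymphocytes enter, gave a different picture. Emilin1 stood at 28.2 CPM in the control library (95% counting interval 22.7 to 34.7, 89 UMIs in 420 cells) and 37.7 CPM in replicate 1 (25.2 to 54.1, 29 UMIs in 101 cells), so the intervals overlapped. Replicate 2 held 5 such cells and gave no value. Nr2f2 was also less apart in these cells, at 144 CPM in the control library and 595 CPM in replicate 1.

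Capillary-like cells of the EC-iCOUPOE libraries were also split by the Nr2f2 UMIs counted in the cell, and Emilin1 was highest where these numbered 2 or more. In replicate 1 it stood at 100.1 CPM in the 87 cells with no Nr2f2 UMI (95% counting interval 57.2 to 163), at 147 CPM in the 87 cells with 1 (96.0 to 215) and at 229 CPM in the 350 cells with 2 or more (199 to 263). In replicate 2 the levels were 35.7 CPM (13.1 to 77.7), 19.5 CPM (2.36 to 70.4) and 161 CPM (104 to 238) in 97, 55 and 71 cells. The cells with 2 or more Nr2f2 UMIs were highest in both libraries, and their intervals lay apart from those of cells without one, while cells without an Nr2f2 UMI still lay above the 4.21 CPM of such control cells (1.55 to 9.17). Mmrn2 gave 513, 503 and 558 CPM over the same cells of replicate 1 and 517, 448 and 619.6 CPM in replicate 2, with overlapping intervals. Depth moved with this split, since the median cell of replicate 1 held 1749 UMIs without and 2375 with 2 or more Nr2f2 UMIs, and its part in the difference was not tested. Leukocyte-like cells, the measure of free RNA above, held Nr2f2 at 639 CPM in replicate 1 and 0 CPM in the control library. Epithelial-like cells held it at 1236 CPM in replicate 1 and 132 CPM in the control library. How many Nr2f2 UMIs of a cell came from free RNA or mixed cells was not tested. In e2 the cells with 2 or more Nr2f2 UMIs were also highest, with 11 Emilin1 UMIs in 55 cells against 2 in the 53 cells without an Nr2f2 UMI in replicate 1, and 5 in 35 cells against 3 in 72 in replicate 2, but on these few UMIs the intervals overlapped. In e8 of replicate 1, which held 335 of its 524 capillary-like cells, the order was the other way, with 425, 260.3 and 246 CPM in cells with 0, 1 and 2 or more Nr2f2 UMIs and overlapping intervals. So in replicate 1 the split over the whole class did not hold within this cluster. In e8 of replicate 2 the 11 cells with 0 and 10 cells with 1 Nr2f2 UMI held 0 Emilin1 UMIs. The 34 cells with 2 or more held 18, with overlapping intervals. In e6 of replicate 1 the Emilin1 UMIs numbered 0 in 16 cells without and 8 in 16 cells with 2 or more Nr2f2 UMIs, again with overlapping intervals.

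**Figure D2:**
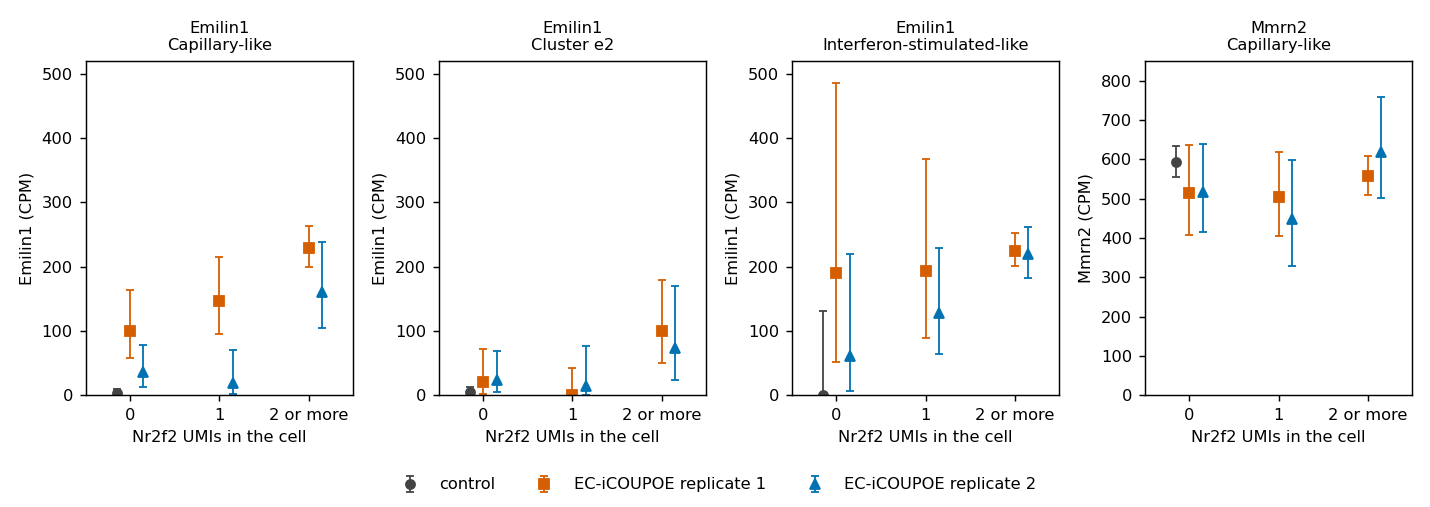
Emilin1 level (CPM) in cells split by the Nr2f2 UMIs counted in them (0, 1, 2 or more), in capillary-like cells, in cluster e2 and in interferon-stimulated-like cells, and Mmrn2 in capillary-like cells, with circles for the control library, squares and triangles for EC-iCOUPOE replicates 1 and 2. Bars are exact Poisson 95% counting intervals and groups under 10 cells are left out. In capillary-like cells Emilin1 reaches 229 and 161 CPM at 2 or more Nr2f2 UMIs, while Mmrn2 stays between 448 and 619.6 CPM in all EC-iCOUPOE groups.

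Outside blood endothelium Emilin1 was found in lymphatic-like and stromal cells, and in epithelial-like cells too. Epithelial-like cells held it at 48.0, 147 and 45.8 CPM in the control library and replicates 1 and 2. The log2 ratios were 1.62 (0.76 to 2.60) and -0.07 (-1.35 to 1.22), and Emilin1 was not called. These cells also held the endothelial transcript Mmrn2, at 312, 376 and 80.2 CPM. Lymphatic-like cells held it at 265 CPM in replicate 1 and 205 CPM in replicate 2, in the range of the EC-iCOUPOE capillary-like cells or above. In the control library lamina propria fibroblast-like cells held 377 CPM, subepithelial fibroblast-like cells 558 CPM, fibroblastic reticular-like cells 215 CPM and adventitial fibroblast-like cells 166 CPM. In mural cells Emilin1 was no higher in the EC-iCOUPOE libraries. Pericyte-like cells held 47.0, 28.1 and 42.6 CPM and smooth muscle-like cells 93.7, 59.3 and 60.9 CPM in the control library and replicates 1 and 2, on 3 to 10 UMIs each with overlapping intervals. These counts were too low for the rule. Nr2f2 stood in the same libraries at 454, 1039 and 631 CPM in pericyte-like cells and at 262, 580.1 and 602 CPM in smooth muscle-like cells. Fibroblast RNA differed between libraries in the opposite direction to Emilin1. Fibroblast marker transcripts made up 123 CPM of control capillary-like cells and 0 and 9.39 CPM of the EC-iCOUPOE ones, and at the ratio seen in fibroblast-like cells they account for 1.43 of the 7 control Emilin1 UMIs.

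The RefSeq promoter table holds upstream sequence for 8 of the 10 genes, and 3 are shown because these genes were called in a blood endothelial class. Emilin1 was called higher in every comparable class and Mfap2 higher in arterial-like cells alone. Fbln5 was called lower in capillary-like and interferon-stimulated-like cells and higher in CRP-like cells. The letters searched were GGTCA, the core shared by nuclear receptor half-sites such as those read by COUP-TFII, and AAGTG, the core of NKX2 homeodomain sites, on both strands and in the 250 bases before each start. Capitals mark GGTCA on the strand shown, and no AAGTG was found in these windows. Positions are on GRCm38.p6, Emilin1 at chr5:30913684-30913712 (plus strand), Mfap2 at chr4:141010174-141010417 (plus strand) and Fbln5 at chr12:101819120-101819369 (minus strand).
Emilin1: agggggagaaggGGTCAggcccagcagcc
Mfap2: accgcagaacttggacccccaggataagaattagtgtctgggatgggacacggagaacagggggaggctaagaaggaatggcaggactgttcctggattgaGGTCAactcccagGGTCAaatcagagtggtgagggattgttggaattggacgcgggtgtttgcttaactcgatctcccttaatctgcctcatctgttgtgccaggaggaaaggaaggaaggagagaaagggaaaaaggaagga
Fbln5: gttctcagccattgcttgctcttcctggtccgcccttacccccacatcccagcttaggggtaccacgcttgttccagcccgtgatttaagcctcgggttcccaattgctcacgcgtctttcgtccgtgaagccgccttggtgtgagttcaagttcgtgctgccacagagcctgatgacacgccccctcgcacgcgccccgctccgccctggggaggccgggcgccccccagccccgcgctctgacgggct
The Emilin1 match begins 90 bases before the RefSeq start, within an exon of a longer annotated transcript, and only a short stretch around it is given. The Mfap2 matches begin 149 and 136 bases before its start. A second Fbln5 window, at chr12:101818485-101818734, holds 1 GGTCA, so Fbln5 has the letters before one of its starts. GGTCA occurred in 35.2% and AAGTG in 40.7% of all 32851 windows of this length, and in 4 of the 12 windows of these genes for GGTCA, so its presence does not set them apart.

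Mmrn2 (chr14:34375465-34404287), the pan-endothelial multimerin, differed little between libraries. In capillary-like cells it stood at 590.2 CPM in the control library, 544 CPM in replicate 1 and 538 CPM in replicate 2, log2 ratios of -0.12 (-0.27 to 0.03) and -0.13 (-0.35 to 0.08). In the 6 comparable blood endothelial classes it was called in none, and over all blood endothelial classes its level ranged from 387 to 805 CPM. Both intervals in capillary-like cells include no change and leave out a 2-fold change in either direction. Elsewhere it was slightly lower in both EC-iCOUPOE libraries, with log2 ratios of -0.37 (-0.50 to -0.23) and -0.53 (-0.73 to -0.33) in arterial-like cells, -0.17 (-0.27 to -0.06) and -0.44 (-0.69 to -0.20) in PCV-like cells, and -0.46 (-0.75 to -0.18) and -0.40 (-0.69 to -0.11) in cluster e2.

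Mmrn1 (chr6:60924976-60989378) and Emilin2 (chr17:71252172-71311978) were nearly absent from blood endothelium. Mmrn1 marked lymphatic-like cells, at 3716 CPM in replicate 1 and 2914 CPM in replicate 2, and 94.7% and 89.8% of these cells held a UMI after thinning. In capillary-like cells of replicate 1 Mmrn1 stood at 4.10 CPM, and the whole control library, with 4 lymphatic-like cells, held 2 Mmrn1 UMIs. Emilin2 gave 61 UMIs in all libraries together, of which 24 lay in the 30 leukocyte-like cells of replicate 1, at 159.7 CPM. In capillary-like cells no Emilin2 UMI was found in 857 control cells, which allows up to 0.430% of cells with one (exact binomial 95% interval).

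**Figure D3:**
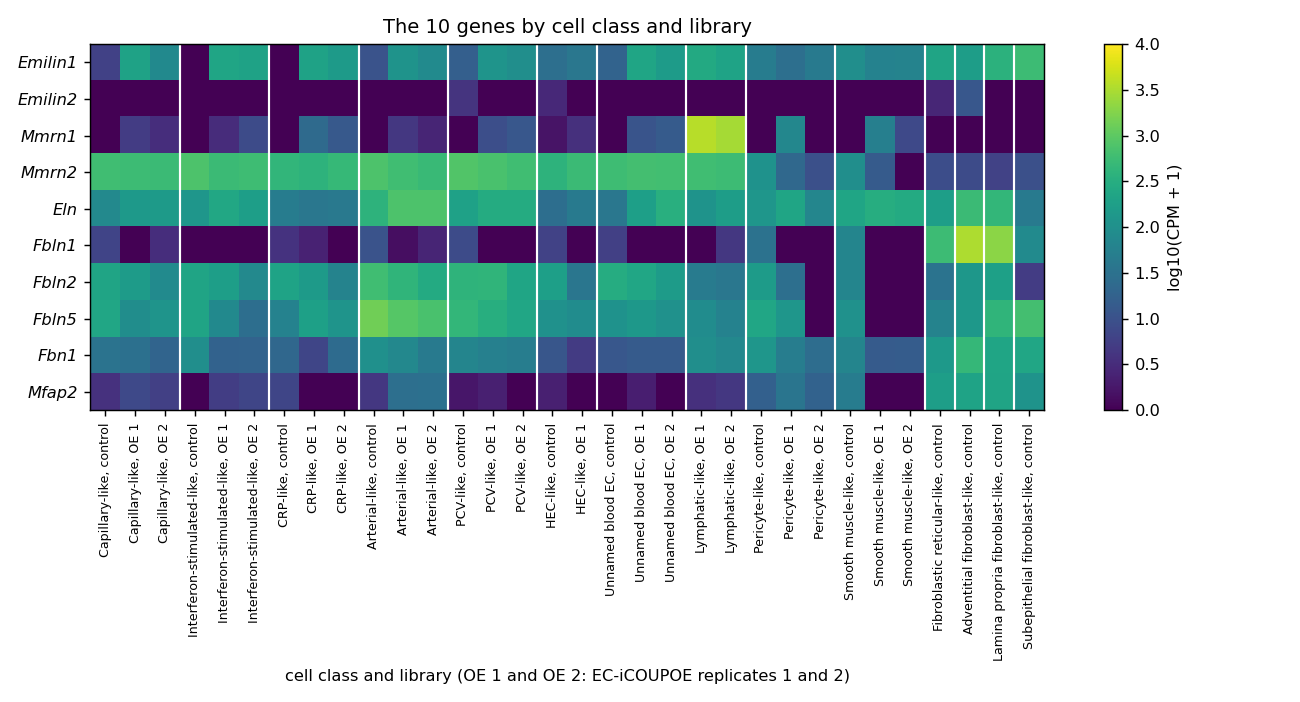
Level of each of the 10 genes by cell class and library as log10(CPM + 1), with white lines between classes and OE 1 and OE 2 standing for EC-iCOUPOE replicates 1 and 2. Rows are to be read along, since the assay does not give levels that compare between genes. Mmrn1 is brightest in lymphatic-like cells, at 3716 and 2914 CPM, Fbln1 in the control fibroblast-like classes, and Mmrn2 in every endothelial class.

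Elastin itself, Eln (chr5:134702593-134747323), was higher in several EC-iCOUPOE endothelial classes by amounts close to the 2-fold limit. In arterial-like cells it stood at 387 CPM in the control library and at 768 and 761 CPM in replicates 1 and 2, log2 ratios of 0.99 (0.82 to 1.16) and 0.98 (0.77 to 1.18), and in capillary-like cells at 76.6, 144 and 150.3 CPM, log2 ratios of 0.91 (0.55 to 1.26) and 0.97 (0.51 to 1.43). The control library was lowest in both with counting intervals of the ratios above 0, and neither reached 2-fold, although arterial-like cells did with the scaling by trimmed means. In the unnamed cluster Eln rose from 37.0 to 182 and 336 CPM and was called, at a mean log2 ratio of 2.74 ± 0.63. PCV-like cells gave 192, 287 and 283 CPM, and CRP-like cells 46.6, 37.5 and 40.5 CPM, with no increase.

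The arterial-like increase of Eln depended on the cluster. Arterial-like cells of replicates 1 and 2 held 1815 and 465 Eln UMIs, of which e10 held 130 and 29 and e11 126 and 107. Most of the rest of the class, and so most of these UMIs, lay in e3, which held 4 control cells. Eln is itself a leading gene of e3. With so few control cells in e3, arterial-like cells of the libraries can be compared within e10 (260, 94 and 30 cells), led by Kcne3 and Gkn3, and e11 (122, 86 and 59 cells), led by Bmp2. The paper reports mature Gkn3-positive arterial cells in its WT cohort alone. In e10 Eln stood at 488, 470.0 and 391 CPM, ratios whose counting intervals included no change. In e11 it stood at 175, 515 and 695 CPM, log2 ratios of 1.56 (1.06 to 2.08) and 1.99 (1.48 to 2.52), and was called higher. Within cluster e2 of the capillary-like class it stood at 109, 77.3 and 138 CPM, on both sides of the control library. Eln overlaps an annotated antisense gene, and reads of these were told apart only by the strand that this assay keeps. In the control library adventitial and lamina propria fibroblast-like cells held Eln at 538 and 443 CPM, above its arterial-like cells, and smooth muscle-like cells at 225 CPM, below them.

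**Figure D4:**
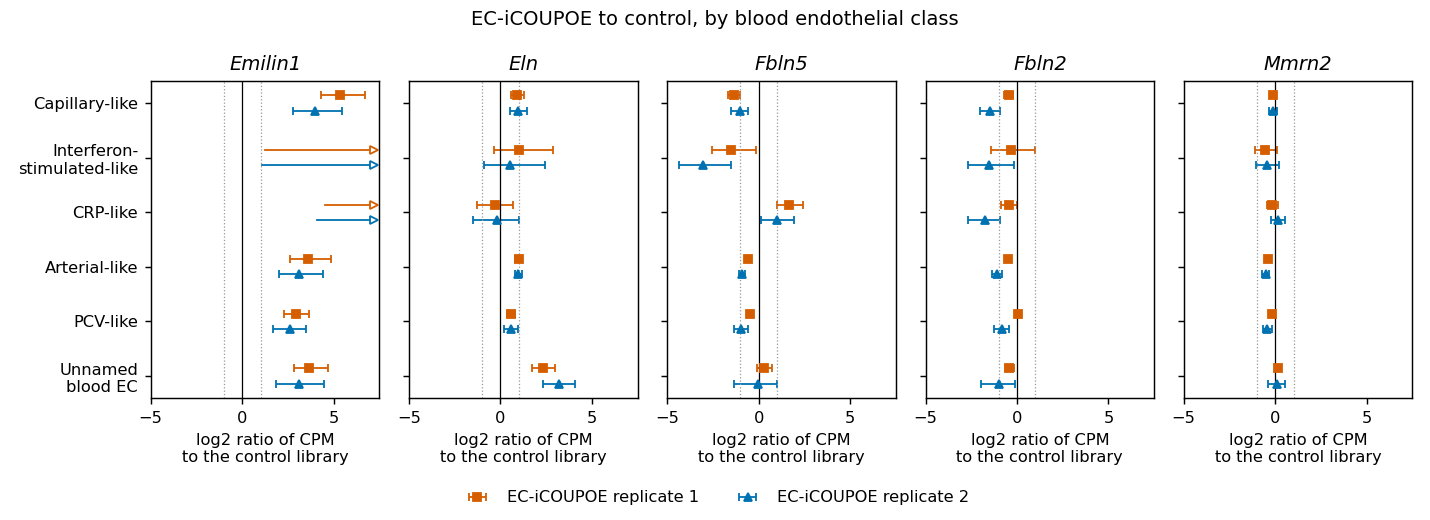
Log2 ratio of CPM in each EC-iCOUPOE library to the control library for Emilin1, Eln, Fbln5, Fbln2 and Mmrn2 in the 6 blood endothelial classes with at least 10 cells in every library, orange squares for replicate 1 and blue triangles for replicate 2. Bars are exact 95% counting intervals, lines ending in open arrows start at the ratio to a control set at 3 UMIs where it held 0, the solid line is no change and dotted lines are 2-fold. Every Emilin1 point or line start lies right of the 2-fold line and every Mmrn2 point between the lines, while Fbln5 lies left of 0 in capillary-like cells and right of it in CRP-like cells.

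Fbln5 (chr12:101746565-101819055), the fibulin that tethers elastin and binds cell-surface integrins, differed in direction between classes. In capillary-like cells it was called lower, at 234 CPM in the control library against 91.9 and 115 CPM, a mean log2 ratio of -1.19 ± 0.23 (SD, n = 2). In interferon-stimulated-like cells it was also called lower, at 217 CPM on 7 control UMIs against 77.3 and 26.5 CPM, a call lost with the scaling by trimmed means and at Louvain resolution 1.6. In CRP-like cells it was called higher, at 58.3 CPM on 20 control UMIs against 186 and 118 CPM, a mean of 1.34 ± 0.47. In each of these classes the counting intervals of both ratios left out no change. In replicate 2, however, a single CRP-like cell held 16 of the 29 Fbln5 UMIs, and the share of thinned CRP-like cells with one was 4.29% in the control library, 12.6% in replicate 1 and 2.97% in replicate 2, so by cells it was higher in replicate 1 alone. Arterial-like cells, which held the most Fbln5 among endothelial classes, gave 1337, 879 and 712 CPM, and PCV-like cells 452, 319 and 231 CPM, lower by mean log2 ratios of -0.76 ± 0.21 and -0.73 ± 0.33 and not called. The unnamed cluster gave 108, 133 and 104 CPM, on both sides of the control library.

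The capillary-like decrease of Fbln5 changed with the clusters taken. Fbln5 was highest in e2, at 388, 259 and 164 CPM, against 28.4 and 79.8 CPM in e6 and e8 of the control library, and the share of e2 differed between libraries. Within e2 the log2 ratios averaged -0.91 and were not called, with the scaling by trimmed means the call in the whole class was lost at -1.19, and with finer clusters the mean ratio was 0.09. In arterial-like cells too, cluster e10 gave 1454, 1819 and 1508 CPM, with no decrease, and e11 gave 1118, 686 and 552 CPM.

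Fbln2 (chr6:91212455-91272540), a fibulin of vessel walls and basement membranes, was lower mainly in replicate 2. In capillary-like cells it stood at 217 CPM in the control library, 158 CPM in replicate 1 and 79.9 CPM in replicate 2, and in arterial-like cells at 592, 420.5 and 280.0 CPM. The control library was highest in both, but log2 ratios of -0.46 and -1.45 in capillary-like cells, and of 0.05 and -0.82 in PCV-like cells, also set the EC-iCOUPOE libraries apart from each other. Fbln2 was called in none of the 6 classes. High endothelial-like cells gave 178 CPM in the control library and 36.4 CPM in replicate 1, on 561 and 28 UMIs, with no second EC-iCOUPOE value.

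Fbln1 (chr15:85205949-85286535) was a fibroblast transcript and rose in no endothelial class. In the control library adventitial fibroblast-like cells held 3183 CPM, lamina propria fibroblast-like cells 1987 CPM and fibroblastic reticular-like cells 557 CPM. Capillary-like cells held 5.52 CPM in the control library (8 UMIs), where fibroblast RNA at its marker ratio would give 9.05 UMIs, and 0 and 2.35 CPM in replicates 1 and 2. Such endothelial values were at the level of free fibroblast RNA, and Fbln1 could not be read above it in these classes.

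The microfibril genes were low in blood endothelium. Fbn1 (chr2:125300594-125507993), the fibrillin that forms the microfibril backbone, stood at 99.7, 73.2 and 44.2 CPM in arterial-like cells, lower in both EC-iCOUPOE libraries and not called. In capillary-like cells it stood at 31.8, 28.7 and 18.8 CPM on 46, 35 and 8 UMIs and was not tested. Its log2 ratios there, -0.15 (-0.82 to 0.52) and -0.76 (-2.05 to 0.34), include no change. In lymphatic-like cells it stood at 92.7 and 71.7 CPM, and the control fibroblast-like classes ranged from 139 to 454 CPM. Mfap2 (chr4:141010418-141015984), the microfibril-associated glycoprotein, was called higher in arterial-like cells, at 3.52 CPM in the control library (3 UMIs) against 27.9 and 29.5 CPM (66 and 18 UMIs), log2 ratios of 2.99 (1.38 to 5.30) and 3.07 (1.29 to 5.47). Mfap2 passed the minimum through replicate 1 alone. Within e11 it stood at 3.80, 61.3 and 45.5 CPM on 1, 15 and 7 UMIs and within e10 at 3.45, 3.62 and 0 CPM, so the arterial-like difference lay outside e10. Most of the 66 and 18 UMIs came from cluster e3, which held 4 control cells against 566 and 150 and allows no comparison. In capillary-like cells it had 4, 8 and 2 UMIs and was not tested.

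Taking the 10 genes across the 6 comparable blood endothelial classes, 32 gene and class pairs reached 50 UMIs in a library and 11 were called, 9 higher and 2 lower, where the shares of all genes called in these classes ran from 3.17% to 7.37% higher and from 1.70% to 12.2% lower. The 12.2% is that of interferon-stimulated-like cells and may count genes with 0 control UMIs, set at 3. Emilin1 supplied 6 of the 11, Fbln5 supplied 3 and Eln and Mfap2 supplied 1 each. All 9 pairs called higher reached the minimum through the EC-iCOUPOE libraries alone, with 0 to 23 control UMIs, and they include the capillary-like Emilin1 value that chose the set, so the count is a description and cannot be read against those shares. In capillary-like cells 5 of the 10 genes were tested, and of these Emilin1 and Fbln5 were called.

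A wider list of 43 elastic fibre and microfibril partner genes gave 11 tested in capillary-like cells. Their median log2 ratios were 0.45 and 0.36, against -0.02 and -0.12 for all 4658 genes tested. The 0.45 leaves out Dcn, at 0 UMIs in replicate 1, while the medians of all genes set such counts at 3. With Dcn placed lowest, the middle gene in replicate 1 is Itgb1 at 0.26. Of the 11 partner genes 2 were called higher and 1 lower, beside 3.22% and 2.04% of all genes. Timp3, a matrix metalloproteinase inhibitor, stood at 440.4 CPM in the control library against 1068 and 1614 CPM, and Ltbp4, which binds latent TGF-beta and helps fibulin-5 to assemble elastic fibres, at 266 CPM against 539.9 and 545 CPM, a call that the scaling by trimmed means ended. Timp3 was also called higher in interferon-stimulated-like, CRP-like, PCV-like and unnamed blood endothelial cells, and in epithelial-like cells. In arterial-like cells it was not called, at log2 ratios of 0.77 and 1.40. Ltbp4 was also called higher in CRP-like and PCV-like cells, so neither increase was particular to capillary-like cells. Dcn, itself one of the fibroblast markers, was called lower, at 34.5 CPM against 0 and 4.70 CPM, beside the drop in fibroblast RNA of 123 to 0 and 9.39 CPM, whose part in it was not tested. Of the genes not called, the highest were Clec14a (520.5, 391 and 270.1 CPM) and Cd93 (370.0, 363 and 348 CPM), both endothelial receptors for multimerin-2, and Itgb1 (264, 317 and 202 CPM), the integrin beta-1 chain through which EMILIN-1 is bound. Within e2 none of 6 partner genes tested was called, with log2 ratios of 0.83 and 1.25 for Timp3 and 0.43 and 0.57 for Ltbp4, all with intervals above 0. Timp3 was called higher in e6, and Timp3 and Ltbp4 in e8, against 12 control cells. In arterial-like cells 2 of 17 were called higher, Lox and Itga9, beside 4.22% of all genes, and both passed the minimum through replicate 1 alone with 7 control UMIs each. Lox, the lysyl oxidase that cross-links elastin, stood there at 8.21 CPM in the control library against 64.3 and 80.2 CPM. It is a leading gene of cluster e3, which held 4 control cells against 566 and 150.

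Across the 38 classes and libraries with at least 10 cells, the correlation of log2(CPM + 10) with the other genes was taken as a description, since classes of a library share its depth and free RNA. The genes most like Emilin1 were Slc39a1, Ostc and Cxcl16, with Pearson r of 0.719, 0.716 and 0.696, and the closest member was Mfap2 at 0.39. Mmrn1 was most like Reln (0.947), Tbx1 and Prox1, and Mmrn2 most like Cdh5 (0.975), Pecam1 and Parvb. Eln was most like Vegfc (0.702), Tnfaip2 and Klf4. Fbln1 was closest to Sfrp1 (0.943), Lpar1 and Dpt, and Mfap2 to Ms4a4d (0.900), Mmp23 and Loxl1. Fbln2 was closest to Grasp (0.821), Lima1 and Nav1, Fbln5 to Nav1 (0.754), Lima1 and Mafg, and Emilin2, on few UMIs, to Prss34 (0.961), Mcpt1 and Alox5ap. Among the members the pairs Fbln1 with Mfap2 (0.79), Fbln2 with Fbln5 (0.71) and Fbn1 with Mfap2 (0.71) were the most alike.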

How the data were processed

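Peyer's patch endothelial cells were profiled by 10x Genomics single-cell RNA-seq in 1 control library and 2 EC-iCOUPOE libraries. The values are raw UMI counts per gene and cell that the authors deposited after alignment to mm10 with Cell Ranger, version 3.0.2 per the labels, while the matrix headers name 3.0.2 and, for replicate 1, 3.1.0. The labels name both the v3 platform and the Kit v2. The control library and replicate 2 list 2 extra feature rows, at 0 UMIs, which were not used.

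Cells were required to have at least 500 genes and 1000 UMIs, with no more than 10% of UMIs mitochondrial, and those with a Scrublet score (scanpy 1.11.5) of 0.25 or more were removed, 132, 94 and 8 cells. Libraries were integrated with Seurat 5.3.0 (reciprocal principal components, 2000 variable genes without the genes reported here, 30 components, 20 neighbours) and clustered at Louvain resolution 1. Clusters were named by the marker list whose mean log2 ratio to the other clusters was highest, and cells with as many markers of another type were left out as mixed. UMIs were summed by class and library (numpy 2.4.6, pandas 2.3.3) and given as CPM with exact Poisson intervals, and ratios with exact conditional intervals (scipy 1.17.1). A gene called different lay 2-fold to one side in both EC-iCOUPOE libraries with at least 50 UMIs in 1 library. A count of 0 UMIs, control or EC-iCOUPOE, was set at 3, and a ratio with 0 on both sides gave no call. Tested on simulated counts of capillary-like cells with 4387 genes tested, the rule found 100 of 100 genes raised 4-fold, 89 of 89 lowered 4-fold and 2 of 4198 unchanged. The simulated libraries shared a single pooled profile and otherwise differed by counting error alone. They therefore do not give the rate of false calls from differences in animals, free RNA or cluster mixture, nor the yield for changes near 2-fold.

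The genes, lists and tests were chosen with earlier results of these data known. Named genes are all 10 members, partner genes called in capillary-like cells plus the 3 of highest CPM there, and the 3 genes most correlated with each member, which for Fbn1 are not reported here. Lox and Itga9 and the leading genes of clusters were named after their values were seen. Gene positions are from GENCODE M21, and promoter sequences from RefSeq on GRCm38.p6. Nothing in the labels says whether the replicates came from separate animals, so the spread between them may be technical.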

Additional observations from a re-analysis of the deposited data

Results flagged for a closer look

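Fbln5 differed between endothelial classes in the direction of its EC-iCOUPOE to control ratio. The mean log2 ratio over both EC-iCOUPOE libraries was 1.34 in CRP-like cells, and it was -1.19 in capillary-like, -2.26 in interferon-stimulated-like, -0.76 in arterial-like and -0.73 in PCV-like cells. Both EC-iCOUPOE libraries lay above the control library in the first class and below it in each of the others listed, and with 1 control library the difference between classes was not tested. In the unnamed blood endothelial cluster they lay on both sides of it, at log2 ratios of 0.30 and -0.06. In CRP-like cells of replicate 2 a single cell held 16 of the 29 Fbln5 UMIs, and after thinning 2.97% of its cells held one against 4.29% in the control library, so in that library the direction rests on that cell. The CRP-like control value rests on 20 UMIs in 163 cells and the interferon-stimulated-like one on 7 UMIs in 19 cells.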

How the results depend on the processing

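The mean log2 ratio of Emilin1 in capillary-like cells was 4.69 and stayed above 0 under every alternative that gave a value. It was 5.65 at Louvain resolution 0.6, 3.19 at resolution 1.6, 3.70 with doublets kept and 2.98 in cluster e2 alone, and was not called there because no library held 50 Emilin1 UMIs in the class, at most 19, 39, 24 and 13. Leaving out either EC-iCOUPOE library gave 4.0 to 5.37. Male cells gave no value, with 0 control UMIs. The ratio of Fbln5 in capillary-like cells turned from -1.19 to 0.09 at resolution 1.6, with 113 control UMIs of it in the class in place of 339.

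The count of 11 of 32 gene and class pairs called became 2 of 12 in male cells and 18 of 54 with no UMI minimum, and ran from 12 to 16 without 1 EC-iCOUPOE library. The partner genes called in capillary-like cells, 3 in the report, numbered 1 at resolution 0.6, at 1.6, with doublets kept and in male cells, 0 in e2 alone, 6 with at least 10 UMIs, 11 with no minimum, 8 with all blood endothelial cells pooled, and 3 to 4 without 1 library. The counts with no minimum include calls whose direction comes only from setting 0 UMIs at 3. Loxl3, Loxl4 and Mfap5 were called higher on 1, 0 and 0 UMIs in the control library and replicates 1 and 2. In interferon-stimulated-like cells Mmrn1 and Mfap2 were called lower, on 0, 3 and 5 UMIs and on 0, 6 and 4. The share of replicate 1 capillary-like cells with an Emilin1 UMI, 17.2%, was 30.5% without thinning. Scaling by trimmed means called 11 pairs, 9 of them shared with the 11 reported, and subtraction of fibroblast RNA left the same 11. The alternatives with cluster e1 added, e2 alone, all cells pooled and shared barcodes left out were chosen after seeing the data.

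No paired analysis was possible because the control group has 1 library and no test was made. Emilin2, Mmrn1, Fbln1 and Mfap2 had few UMIs in most blood endothelial classes, which limits what can be read of them there. Replicate 2 has the fewest UMIs of most blood endothelial classes, and the control library those of interferon-stimulated-like and mural cells.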

Other observations

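Part of the cells can be told male or female by their Y-linked and Xist UMIs. Cells with both or neither were left out, among them many of the 857, 524 and 223 capillary-like cells. Of those given a sex, male cells were a smaller part in the control library than in either EC-iCOUPOE library. Emilin1 was higher in female EC-iCOUPOE capillary-like cells of both replicates and in male ones of replicate 1. Female cells held 5.30 CPM in the control library (534 cells) and 293 and 73.2 CPM in EC-iCOUPOE replicates 1 and 2 (163 and 90 cells). Male cells held 0 UMIs in the 29 control cells, against 154 and 46.7 CPM (109 and 34 cells), on 42 and 3 UMIs. The control value of male cells allows up to 73.2 CPM (exact Poisson 95% interval), so male cells of replicate 2 cannot be set apart from it.

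Cd248, a stromal sialomucin that binds multimerin-2, was below the 50 UMIs of the rule in capillary-like cells and was picked out after its values were seen. It stood at 2.07 CPM in the control library (3 UMIs) and at 27.9 and 30.5 CPM in replicates 1 and 2 (34 and 13 UMIs), log2 ratios of 3.75 (2.08 to 6.10) and 3.88 (2.02 to 6.33). It is one of the leading genes of cluster e8, which held 12 control cells.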
